A study of Mus musculus with 8 samples.

Results

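The 10 genes described here encode core parts of the circadian clock in mouse bone marrow-derived macrophages (BMDMs), namely Arntl, Clock, Per1, Per2, Cry1, Nr1d1, Nr1d2, Dbp, Tef and Bhlhe40. They were chosen by name from what they are known to do, though with earlier results of these data known. All 10 are among the 55357 genes of the count table and among the 14514 genes with enough counts to be tested. Macrophages were grown with M-CSF from the femur and tibia marrow of wild-type C57BL/6J mice. Among the libraries, 4 came from cells given sphingosine d18:1 (So(d18:1)) at 2 μM for 6 h, and 4 control libraries came from cells given its methanol solvent for 6 h. Each library is polyA RNA, the labels name no gene deletion or transgene, and the age of the mice and the time of day of harvest are not given in the sources used here. The sample labels name no inflammatory stimulus, while the text of the study places the cells under one, so whether the cells of both groups also received a stimulus is not settled. The study calls the 4 samples of a group biologically independent, and the labels do not say whether they came from separate mice. The libraries held 17748397 to 26088609 counts (median 22926576).

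The clock is a loop of transcription and repression that runs in most cells with a period of about a day. ARNTL (also called BMAL1) pairs with CLOCK and switches on genes that carry an E-box, among them the Per and Cry genes, whose proteins then repress the pair. A second loop sets the level of Arntl itself, since the nuclear receptors NR1D1 and NR1D2 (REV-ERBα and REV-ERBβ) repress it through an element called RORE, which ROR receptors use to activate it. DBP and TEF carry the rhythm to output genes through the D-box, and BHLHE40 (DEC1) represses at E-boxes. In macrophages the clock is known for gating inflammatory responses by time of day, and NR1D1 is known to repress inflammatory genes. All libraries were taken after the same 6 h of treatment, so levels are reported here and rhythms are not. Whether the groups were harvested at the same time of day is not given.

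The elements through which the loops act were looked up in RefSeq start regions (GRCm38.p6, 250 bases before to 50 bases after each start), which hold 13 windows for 8 of the 10 members. The E-box CACGTG, which reads the same on both strands, was found in the windows of Per1, Cry1 and Tef, that is in 4 of 13 windows, and 7.15% of all 32851 windows of that length in the mouse hold it. The RORE was searched on both strands as AANTN followed directly by GGTCA, and the only match was 27 bases after the second of the start sites of Arntl, where 0.606% of all windows hold one. The D-box TTATGTAA (0.938% of all windows) and the cAMP response element TGACGTCA (1.79% of all windows) were searched on both strands as well and were not matched in these windows. The Tef gene has an E-box in 2 of its start regions, and that of the more upstream start is shown. The 30 bases around the matches are shown because the loops are known to act through elements with these letters. They are read 5′ to 3′ on the strand of the gene, with the element in capitals.
Arntl RORE, chr7:113207528-113207557, plus strand: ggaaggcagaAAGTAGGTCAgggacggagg
Per1 E-box, chr11:69098771-69098800, plus strand: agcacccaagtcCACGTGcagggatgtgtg
Cry1 E-box, chr10:85185097-85185126, minus strand: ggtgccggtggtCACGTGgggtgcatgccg
Tef E-box, chr15:81802534-81802563, plus strand: gtgctgtggctcCACGTGctgcagctggca
The Arntl and Tef stretches lie over an annotated exon of their gene. A match is a run of letters and was not tested for binding.

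Arntl fell with So(d18:1), and it was the only one of the 10 clock genes that passed the test. In 1 of 10 members (10%) the adjusted p was under 0.05, where 8.94% of all tested genes passed, so the clock genes as a group were called about as often as any gene. The one call was a fall, as were 5.07% of all tested genes, and no member rose by this test, against 3.87% of all genes. Of the 10 members, 5 had a higher and 5 a lower fitted level, and their median log2 fold change was 0.02, beside 0.0036 over all genes tested. At an unadjusted p under 0.05 there were 3 members (Arntl, Per1 and Bhlhe40), where 23.4% of all genes had one. When genes with few counts were kept, Bhlhe40 (adjusted p = 0.00548, edgeR) and Nr1d2 (adjusted p = 0.0291, edgeR) passed as well, which made 3 calls of 10, where 6.14% of all genes in that fit passed.

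Arntl (ENSMUSG00000055116, chromosome 7 from 113207465 to 113314126 in mm10) encodes the activator without which the loop does not run. Its level in CPM (the count as a share of the library, scaled by TMM) was 26.7, 26.0, 26.8 and 27.2 in control replicates 1 to 4 and 18.7, 19.2, 20.9 and 17.8 in So(d18:1) replicates 1 to 4. Every So(d18:1) library lay below every control library, as was so for 7.87% of all tested genes, and the control libraries were within 1.04-fold of each other. The mean decreased from 26.7 ± 0.47 to 19.2 ± 1.3 CPM (SD, n = 4 each). In edgeR's quasi-likelihood test, adjusted by Benjamini-Hochberg over every gene tested, the fitted level decreased by 28.3% (log2 fold change -0.48 ± 0.068 SE, adjusted p = 7.66e-05). The 95% interval of the log2 fold change ran from -0.62 to -0.34. An exact two-sided permutation test of CPM gave p = 0.0286, the smallest that 4 against 4 libraries allow. Each library held at least 333 reads of the gene, and no stretch of 50 bases of its transcripts occurs in another annotated gene. The fall is under the 1.5-fold that the study's methods require beside an unadjusted p, a threshold that 3.89% of all tested genes met (1.41% higher and 2.48% lower) and no member did.

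**Figure D1:**
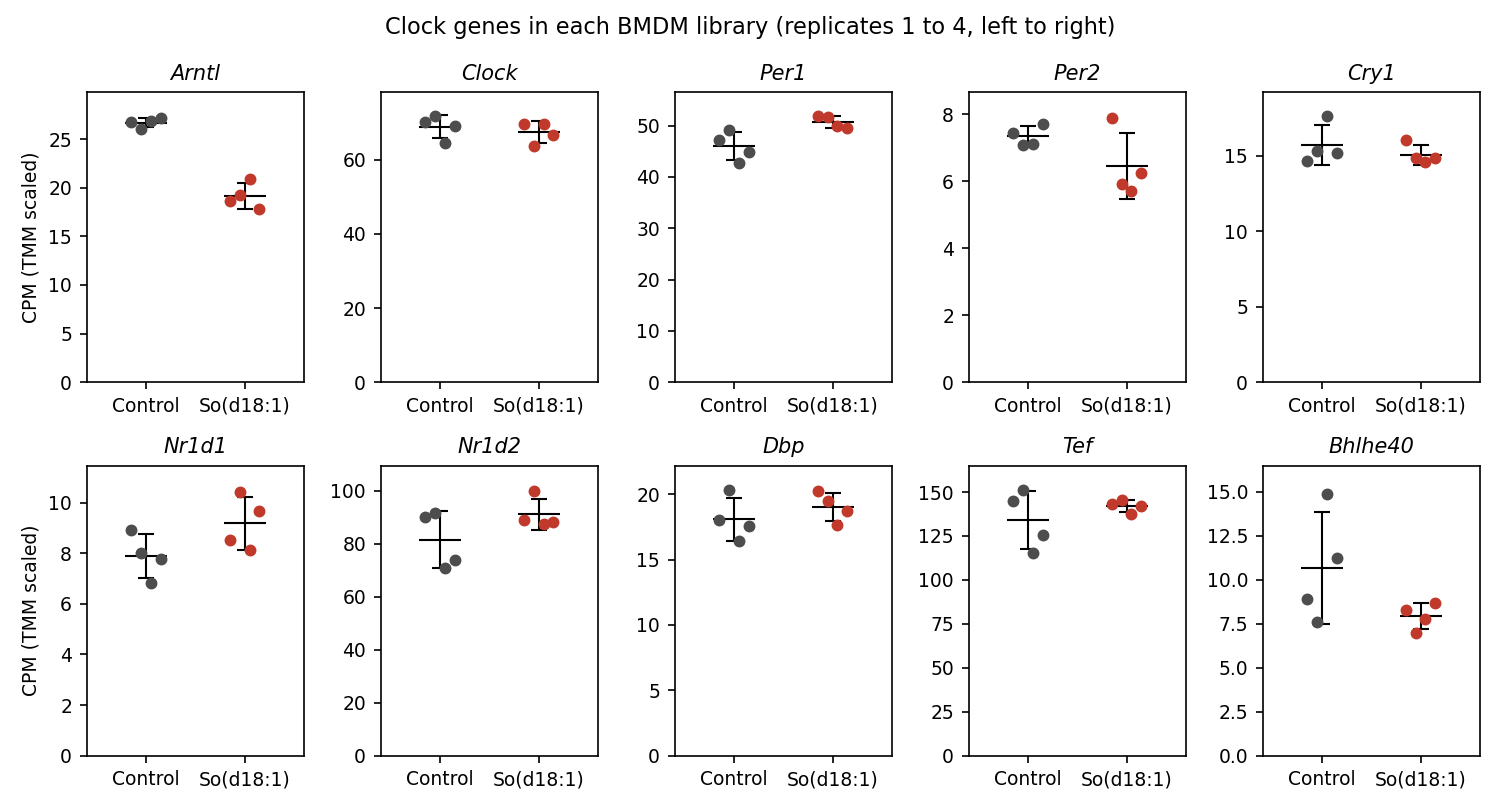
Level of each of the 10 clock genes in CPM (vertical axis, from 0) in the 4 control (grey) and 4 So(d18:1) (red) libraries, replicates 1 to 4 from left to right, with mean and SD as a bar and whiskers. Arntl is the gene whose groups are clearly apart, at 26.0 to 27.2 in control against 17.8 to 20.9 CPM with So(d18:1).

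Clock, whose protein is the partner of ARNTL, had no such difference. The gene spans chromosome 5, 76209868 to 76304792. Levels were 70.2, 71.9, 64.5 and 69.1 CPM in the control libraries and 69.7, 63.8, 69.8 and 66.8 CPM in the So(d18:1) libraries. The groups overlapped almost fully, with means of 68.9 ± 3.16 and 67.5 ± 2.85 CPM (SD, n = 4 each). On the log2 scale the change was -0.031 (95% interval -0.14 to 0.074, adjusted p = 0.769, edgeR). Whether the change of Arntl differs from that of Clock was not tested.

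Per1, Per2 and Cry1 encode the repressors of the ARNTL and CLOCK pair. Per1 (chromosome 11, 69095217 to 69109960) is also an early response gene of glucocorticoid and cAMP signals. Control replicates 1 to 4 held 47.2, 49.2, 42.7 and 44.9 CPM of it, and So(d18:1) replicates 1 to 4 held 51.9, 51.6, 49.9 and 49.6 CPM. Its groups did not overlap, though the highest control and the lowest So(d18:1) library were nearly level. Non-overlap in the upward direction occurred in 7.15% of all tested genes. Means were 46.0 ± 2.79 and 50.8 ± 1.15 CPM (SD, n = 4 each). The log2 fold change of 0.14 ± 0.054 (SE) missed the threshold in edgeR (adjusted p = 0.116), and the exact permutation p was 0.0286.

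Per2 (chromosome 1, 91415982 to 91459324) had the lowest level of the members, and its values with So(d18:1) depended on 1 library. The control libraries held 7.45, 7.08, 7.12 and 7.71 CPM, and the So(d18:1) libraries held 7.90, 5.92, 5.72 and 6.24 CPM. So(d18:1) replicate 1 was thus above every control library and the other 3 were below every control library. The fitted log2 fold change of -0.19 ± 0.12 (SE) did not pass (adjusted p = 0.359, edgeR), and without So(d18:1) replicate 1 it was -0.30 (adjusted p = 0.140, edgeR).

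Cry1 (chromosome 10, 85131700 to 85185064) encodes a partner of the PER proteins in repression. The control values were 14.7, 15.3, 17.6 and 15.2 CPM and the So(d18:1) values 16.0, 14.8, 14.6 and 14.8 CPM. The ranges overlapped, with a log2 fold change of -0.063 (95% interval -0.24 to 0.11, adjusted p = 0.705, edgeR). Without control replicate 3, its highest library, the log2 fold change was -0.0019.

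Nr1d1 and Nr1d2 encode the repressors of Arntl. Nr1d1 (chromosome 11, 98767932 to 98775333) was at 8.94, 8.03, 6.82 and 7.79 CPM in the control libraries. With So(d18:1) it was at 8.51, 10.4, 8.11 and 9.65 CPM. Only So(d18:1) replicates 2 and 4 lay above the whole control range. Its log2 fold change of 0.22 (95% interval -0.013 to 0.46) did not pass the test (adjusted p = 0.242, edgeR). Of the exon bases of Nr1d1, 8.55% are also exons of Thra on the other strand. The strand setting of the counting is not given in the sources used here, and the log2 fold change of Thra was 0.17 (adjusted p = 0.164, edgeR), so reads of the overlap cannot be assigned to one of these genes.

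Nr1d2 (chromosome 14, 18204054 to 18239127) encodes the close relative of NR1D1. It held 90.2, 91.5, 70.8 and 73.7 CPM in the control libraries, which fell into a higher and a lower pair. The So(d18:1) libraries held 88.9, 99.9, 87.5 and 88.2 CPM, near the higher control pair. Group means were 81.5 ± 10.8 and 91.1 ± 5.89 CPM (SD, n = 4 each), and the log2 fold change of 0.16 ± 0.084 (SE) did not pass (adjusted p = 0.283, edgeR). Without control replicate 3 the value was 0.10 and without control replicate 2 it was 0.22. Of all stretches of 50 bases in its transcripts, 5.13% also occur in the gene AC170187.1, and how reads of these were counted is not known.

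Within each library, the log2 CPM of Arntl minus that of Nr1d1 was 1.57, 1.69, 1.96 and 1.79 in control and 1.12, 0.87, 1.36 and 0.88 in So(d18:1) libraries. This ratio of the activator to its repressor does not depend on the scaling of the libraries, apart from the small prior count, and its values in the groups did not overlap. Its mean moved from 1.75 ± 0.17 to 1.06 ± 0.23 (SD, n = 4 each). Against Nr1d2 the mean moved from -1.60 ± 0.21 to -2.25 ± 0.13, against Dbp from 0.56 ± 0.15 to 0.0086 ± 0.16, and against Per1 from -0.78 ± 0.11 to -1.40 ± 0.10. All of these ratios contain Arntl and are given as a description, with no test.

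Dbp and Tef encode output factors of the PAR bZIP family, which act at the D-box. Dbp, on chromosome 7 from 45705088 to 45710203, is one of the most strongly cycling transcripts in many tissues. The control libraries held 18.0, 20.4, 16.4 and 17.6 CPM. The So(d18:1) libraries held 20.2, 19.5, 17.7 and 18.7 CPM, each inside the control range. On the log2 scale the change was 0.071 (95% interval -0.096 to 0.24, adjusted p = 0.647, edgeR). The end of Dbp lies over that of Sphk2, the gene of sphingosine kinase 2, an enzyme that phosphorylates sphingosine, and 18.0% of the exon bases of Dbp are also exons of Sphk2 on the other strand. Control libraries had 83.8 ± 4.14 CPM of Sphk2 and So(d18:1) libraries 83.7 ± 3.67 CPM (SD, n = 4 each, adjusted p = 1.00, edgeR). Reads of the overlap cannot be assigned to one of these genes.

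Tef (chromosome 15, 81802421 to 81826863) was at 145, 151, 115 and 125 CPM in the control libraries. With So(d18:1) it was at 143, 145, 137 and 142 CPM. As with Nr1d2, control replicates 1 and 2 were high and 3 and 4 low. All the So(d18:1) values lay within the control range, with a log2 fold change of 0.083 (95% interval -0.069 to 0.24, adjusted p = 0.533, edgeR). Dbp and Tef were the 2 members whose So(d18:1) values all lay within the control range, where 14.1% of all tested genes did so.

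Bhlhe40 (chromosome 6, 108660629 to 108666925) encodes a repressor that competes with ARNTL and CLOCK at E-boxes and that also answers hypoxia and immune signals. It had the widest spread of the members. Control replicates 1 to 4 held 8.89, 7.59, 14.9 and 11.3 CPM, a 1.96-fold range, while the So(d18:1) libraries held 8.29, 6.96, 7.75 and 8.64 CPM. Control replicates 3 and 4 were above all So(d18:1) libraries, and control replicate 2 was below 3 of them. In edgeR its log2 fold change of -0.43 ± 0.18 (SE) had an unadjusted p of 0.0363 and an adjusted p of 0.179. Control libraries decided its size, since it was -0.22 without control replicate 3 (adjusted p = 0.366, edgeR) and -0.56 without control replicate 2, where it passed (adjusted p = 0.0177, edgeR).

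**Figure D2:**
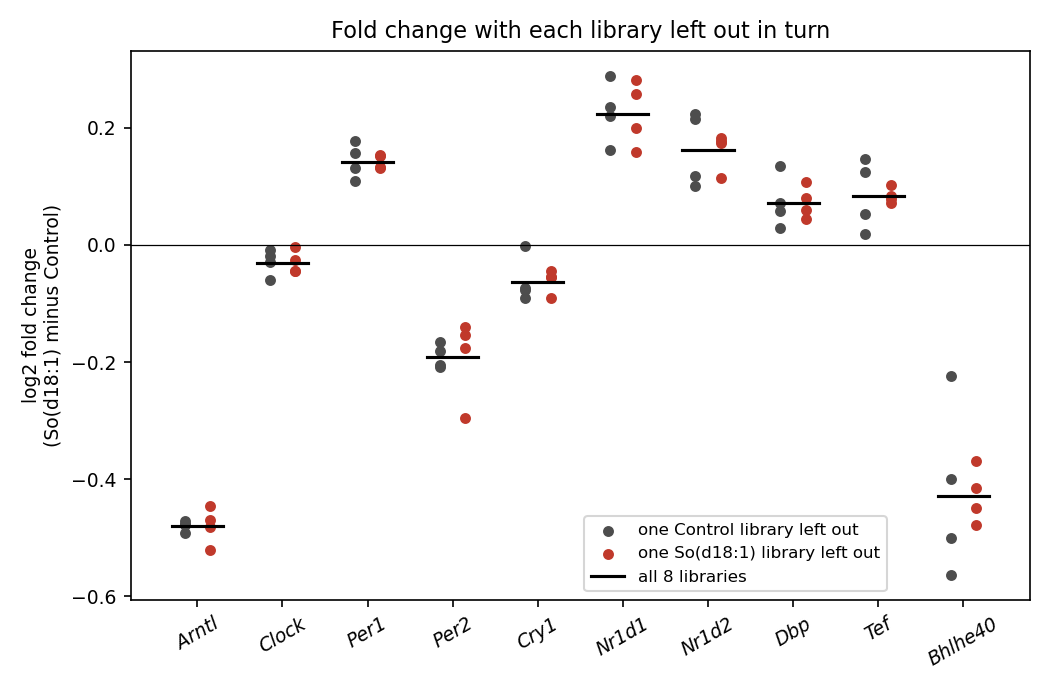
Fitted log2 fold change of each clock gene (vertical axis) with all 8 libraries (black line), with each control library left out in turn (grey points) and with each So(d18:1) library left out in turn (red points). Arntl stayed between -0.52 and -0.45, whereas Bhlhe40 ranged from -0.56 to -0.22.

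Replicate spread was not even between the groups. The coefficient of variation was larger in control than in So(d18:1) libraries for 7 of the 10 members, beside 48.6% of all tested genes. It was 12.4% in control and 2.43% in So(d18:1) libraries for Tef, 13.2% and 6.46% for Nr1d2, and 29.97% and 9.27% for Bhlhe40. Arntl went the other way, with 1.76% in control and 6.79% with So(d18:1). In the map of deviations, control replicate 3 stood at the low end of its group for Nr1d1, Nr1d2, Dbp, Tef, Per1 and Clock and at the high end for Cry1 and Bhlhe40. In that library Arntl was at 26.8 CPM, within the range of the other control libraries.

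**Figure D3:**
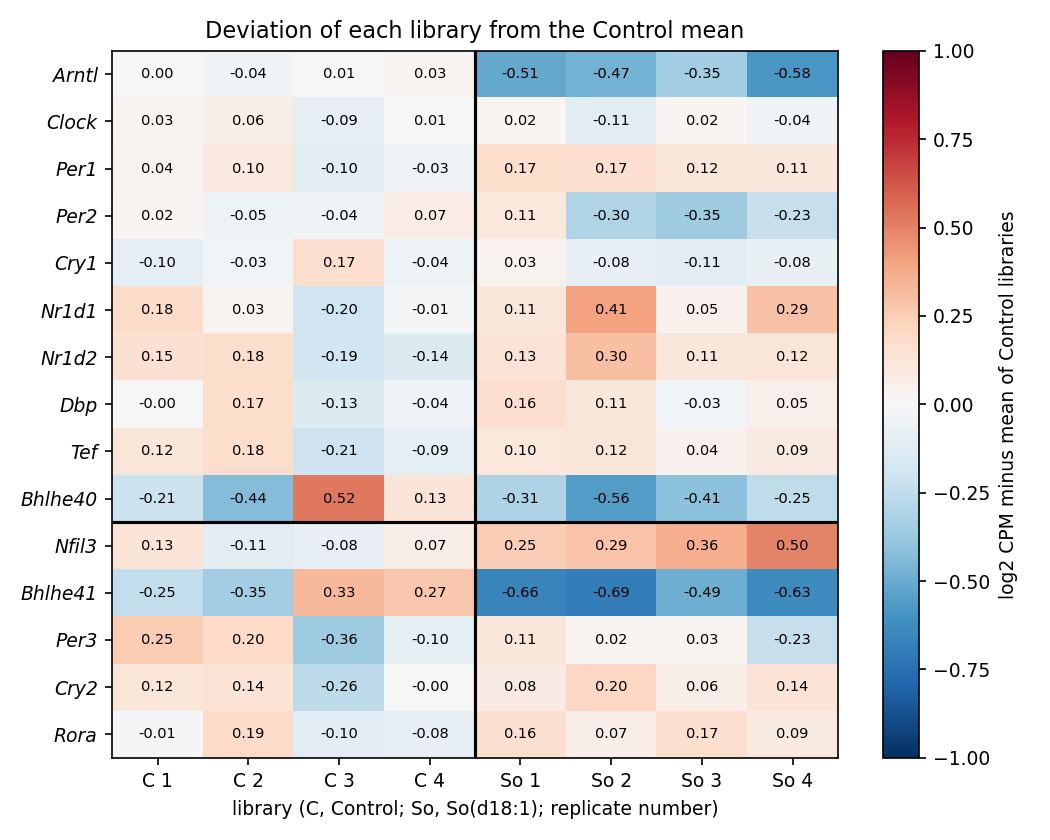
Log2 CPM of each library minus the mean of the control libraries (colour and printed values, blue lower, red higher) for the 10 members above the line and 5 other clock factors below it, with the libraries in columns. The Arntl row is near 0 in all control libraries and lies between -0.58 and -0.35 in the So(d18:1) libraries.

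Levels of different members were compared per kb of exon length. In control libraries Tef led with 17.1 ± 2.11 CPM per kb (SD, n = 4), followed by Nr1d2 with 15.1 ± 2.00, and the ranges of these neighbours overlapped. Per1 with 8.17 ± 0.50 and Dbp with 6.04 ± 0.55 CPM per kb came next, each apart from its neighbours. Clock with 5.02 ± 0.23 and Cry1 with 4.70 ± 0.40 overlapped. Arntl with 3.55 ± 0.063 CPM per kb was apart from those above and below it, and Nr1d1 with 2.57 ± 0.28 overlapped with Bhlhe40 at 2.26 ± 0.68. Per2 was last with 1.25 ± 0.051 CPM per kb. With So(d18:1) the order was the same except that Arntl, at 2.55 ± 0.17, stood below Nr1d1, at 2.98 ± 0.35 CPM per kb (SD, n = 4 each). The ranges of these neighbours overlapped, and in So(d18:1) replicate 3 Arntl (2.78 CPM per kb) was above Nr1d1 (2.64 CPM per kb).

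The other transcription factors and repressors of the clock loops gave 2 further calls. Of 12 such genes listed, 10 were tested, 1 rose and 1 fell, and 8 did not pass, with a median log2 fold change of -0.034. The share of all tested genes that passed was again 8.94%. Nfil3 (E4BP4), which opposes DBP and TEF at the D-box and, like Arntl, is repressed by NR1D1, rose. The control libraries held 42.6, 36.0, 36.7 and 40.7 CPM of it. The So(d18:1) libraries held 46.2, 47.5, 50.03 and 54.9 CPM, each above the control range (log2 fold change 0.35 ± 0.066 SE, adjusted p = 0.00147, edgeR). Arntl and Nfil3 thus changed in opposite directions.

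Bhlhe41 (DEC2), the close relative of Bhlhe40, fell. Its control values were 9.37, 8.71, 14.0 and 13.4 CPM, and its So(d18:1) values were 7.002, 6.87, 7.91 and 7.17 CPM. The groups did not overlap, and as for Bhlhe40 control replicates 3 and 4 were the highest. Its log2 fold change was -0.65 ± 0.14 (SE, adjusted p = 0.00705, edgeR), and with single libraries left out it ranged from -0.77 to -0.54 and passed in each of the 8 fits. Of its exon bases, 19.0% lie over Gm43909 on the other strand, which held at most 9 reads in a library. Its start region holds an E-box, shown here beside those of the members.
Bhlhe41 E-box, chr6:145865556-145865585, minus strand: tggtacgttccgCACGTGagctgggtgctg
For Rora, which encodes an activator of Arntl at the RORE, the log2 fold change was 0.12 (adjusted p = 0.345, edgeR). Per3 was at 60.6, 58.3, 39.7 and 47.5 CPM in control libraries, the same high and low pairs as Nr1d2 and Tef, and at 43.4 to 54.9 CPM with So(d18:1). Cry2 (log2 fold change 0.12), Ciart (-0.22) and Timeless (-0.035) did not pass either. Npas2, Arntl2 and Hlf, the relatives of Clock, Arntl and Dbp, were close to the limit of detection, with at most 27 reads in a library. Rorb, the gene of another ROR receptor, had at most 2 reads in a library and was too low to be tested.

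**Figure D4:**
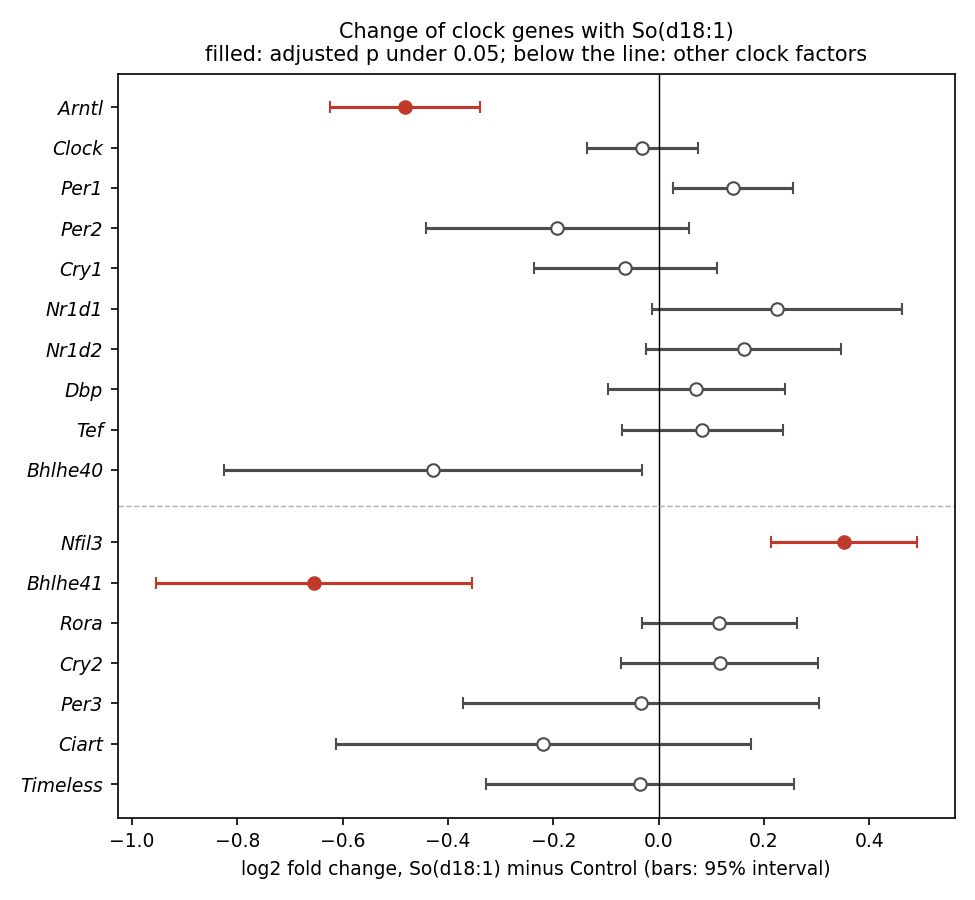
Log2 fold change of So(d18:1) against control (horizontal axis) with its 95% interval for the 10 clock genes, above the dashed line, and for 7 of the other clock factors below it. Filled red points passed at an adjusted p under 0.05, and these were Arntl and Bhlhe41, which were lower, and Nfil3, which was higher.

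Genes whose products act on clock proteins were called in no case. Of 16 kinase and ubiquitin ligase genes, all tested, 0 passed edgeR's adjusted test (8.94% of all tested genes did) and 5 had an unadjusted p under 0.05 (23.4% of all tested genes did). The smallest p were those of Fbxw11 (log2 fold change -0.11), which encodes a ligase part that recognises PER proteins, Csnk2a2 (0.12) and Cul1 (-0.11). Csnk1d and Csnk1e, the kinases that mark PER proteins for breakdown, had log2 fold changes of 0.056 and 0.11. DESeq2 and limma-voom were run as alternatives for the 3 genes with the smallest p and called none of them.

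Genes known to follow the clock in many tissues also gave 0 calls of 9 tested by edgeR, with 3 at an unadjusted p under 0.05, against the same shares of 8.94% and 23.4% of all tested genes. Por, the reductase that serves cytochrome P450 enzymes, was at 103, 94.3, 144 and 133 CPM in the control libraries and, with So(d18:1), at 83.6, 80.7, 86.9 and 87.3 CPM (log2 fold change -0.49, adjusted p = 0.0866, edgeR). It passed in DESeq2 (adjusted p = 0.0116) and limma-voom (adjusted p = 0.00832). With single libraries left out, Por passed in 1 of 8 edgeR fits, that without control replicate 2 (adjusted p = 0.00683). In the other fits its adjusted p was up to 0.190 (edgeR). Noct, a NADP(H) phosphatase under clock control, had means of 28.9 ± 7.92 CPM in control and 17.9 ± 3.40 with So(d18:1) (SD, n = 4 each). The difference (log2 fold change -0.70) did not pass in edgeR (adjusted p = 0.131) and passed in DESeq2 (adjusted p = 0.0386) and limma-voom (adjusted p = 0.0170). With single libraries left out, Noct passed in 0 of 8 edgeR fits (adjusted p from 0.0702 to 0.266). For Nampt, of NAD synthesis, the log2 fold change was 0.11 (adjusted p = 0.119, edgeR).

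Of the macrophage genes known to be repressed by NR1D1 or NR1D2, 9 of 10 were tested, and 1 rose and 2 fell, where 3.87% of all tested genes rose and 5.07% fell. The fall of Arntl and the rise of Nfil3 are 2 of these, and Cx3cr1, a chemokine receptor, fell from 79.8 ± 5.34 to 62.4 ± 5.42 CPM (SD, n = 4 each, log2 fold change -0.35, adjusted p = 0.000836, edgeR). Among genes of the corepressor that NR1D1 and NR1D2 recruit, Tbl1x fell (log2 fold change -0.19, adjusted p = 0.0112, edgeR), though without So(d18:1) replicate 2 its adjusted p was 0.0502. Its relative Tbl1xr1 did not pass (log2 fold change 0.17, adjusted p = 0.164, edgeR).

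Markers of other cells were checked beside these values. All 8 macrophage markers were tested and were abundant, with Lyz2 the highest and a summed level of 30649 to 32872 CPM in control and 26516 to 31319 CPM in So(d18:1) libraries. Of these 8, Mertk and Cd68 fell and Itgam rose at an adjusted p under 0.05 (edgeR), where 5.07% of all tested genes fell and 3.87% rose. Of 8 neutrophil markers, none of them at 0, 4 fell and 1, Mmp8, rose by the same test. At an unadjusted p under 0.05 (edgeR), 7 neutrophil markers were lower and 1 higher, and 5 macrophage markers were lower and 1 higher. The shares of all tested genes were 11.9% lower and 11.4% higher. Their summed level was 1178, 1155, 1548 and 1366 CPM in control replicates 1 to 4 and 1071, 1008, 1016 and 1093 CPM in So(d18:1) replicates 1 to 4, with S100a9 the highest in control libraries. Control replicates 3 and 4 were thus the highest for neutrophil markers and also for Bhlhe40, Bhlhe41, Por, Noct and Cx3cr1. The same libraries were the lowest of the controls for 6 members, namely Clock, Per1, Nr1d1, Nr1d2, Dbp and Tef. Arntl was also higher in control replicates 3 and 4 than in 1 and 2, within its 1.04-fold range. The part of neutrophils in these results was not tested. Markers of dendritic cells (at most 7.67 CPM summed over 6 genes), lymphocytes (0.904 to 4.0003 over 6), stroma (at most 8.72 over 6) and mast cells or basophils (at most 1.01 over 5) were near the detection limit, and Tpsb2 was at 0 in all libraries. The highest in these lists by mean level were Flt3, Cd79a, Pdgfrb and Gata2. In bulk RNA, a change in the share of a cell type and a change in RNA per cell cannot be told apart.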

How the data were processed

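PolyA RNA of 8 BMDM libraries was sequenced, 4 control and 4 So(d18:1). The deposited table holds raw read counts for each gene, which the authors did not normalize. Per the labels, reads were trimmed with Trim Galore 0.6.7, aligned to mm10 with HISAT2 2.2.1 and counted with featureCounts 2.0.1. The strand setting and the treatment of multi-mapping reads are not given in the sources used here, which matters for genes that overlap others. Gene lengths in the deposited file equalled the union of GENCODE M21 exons (GRCm38, the mm10 build) for each of the members, and 52081 of 55357 identifiers had a symbol there.

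Counts were tested in R 4.3.3 with edgeR 4.0.16 (filterByExpr, TMM with factors from 0.989 to 1.01, robust quasi-likelihood F test) across 14514 genes, with Benjamini-Hochberg adjustment and a threshold of 0.05. Standard errors are the absolute log2 fold change over the square root of F. Log2 CPM used a prior count of 2. With simulated counts for this comparison (14328 genes tested), 65.7% of genes changed by 0.5 and 84.5% of those changed by 1 on the log2 scale were called, and 8 of 155 calls were false. P-values measure the spread between these samples, which includes counting error. Alternatives were DESeq2 1.42.0, limma-voom (limma 3.58.1), other scalings and filters, the replicate number as a block, the study's call rule and each library left out.

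The members and lists (other clock factors, clock protein turnover, clock outputs, genes induced by glucocorticoids or cAMP, genes repressed by NR1D1 and its corepressor, and 6 marker lists) were chosen with earlier results of these data known. Some genes of these lists, and the counts of the corepressor list, are not reported here. Named genes are the members, the 3 with the smallest p and all called genes of each list that is not a marker list, the highest gene of each marker list, and the 3 most like the member with the smallest p. Genes named beyond these (Thra, Sphk2 and other neighbours, further clock genes, Csnk1d, Csnk1e and marker genes) were chosen after their values were seen. Figures were drawn with matplotlib 3.10.9.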

Additional observations from a re-analysis of the deposited data

Results flagged for a closer look

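One value stood apart from its group among 62 groups of 4 libraries examined (the members and the other genes named by the rule, in each condition), where about 3.1 are flagged by chance at 1 in 20. Nr1d2 had a log2 CPM of 6.64 in So(d18:1) replicate 2 against 6.45 to 6.48 in the other So(d18:1) libraries, so that the gap to the nearest of them was 0.883 of the range of the group. Without that library the log2 fold change of Nr1d2 was 0.11 (adjusted p = 0.515, edgeR).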

How the results depend on the processing

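Arntl was lower under each of the 17 alternatives run, with log2 fold changes from -0.52 to -0.45, and it lost its call only under the study's rule of an unadjusted p and a 1.5-fold change. No named gene reversed its sign. Under that rule 0 members passed (0 higher and 0 lower), 1 of the other clock factors passed (0 higher and 1 lower), and 564 genes of the table did (204 higher and 360 lower), against 1298 by adjusted p (562 higher and 736 lower). With no filter on low counts 3 members passed, 1 higher (Nr1d2) and 2 lower (Arntl and Bhlhe40), and so they did with the replicate number as a block (3 members, 1 higher and 2 lower). Same-numbered libraries had correlations of deviations from -0.0035 to 0.10, and only control replicate 2 correlated best with its own number. The numbers were not taken as pairs in the main fit. These correlations include counting error and cannot exclude that same-numbered libraries were paired. The block raised the count over all genes to 1784 (12.3% of those tested), and it also let Noct, Por and Tbl1xr1 pass. With single libraries left out, 1 to 2 members were called (1 to 2 lower, 0 higher), 2 of the other clock factors in each fit, and 815 to 1370 genes of the table (360 to 576 higher, 455 to 794 lower), fewest without So(d18:1) replicate 2. Across the named genes, 475 of 527 repeated tests kept direction and side of the threshold, 36 lost the call and 16 gained it. Some genes had few reads, since Per2 rested on 110 to 187 reads per library and Npas2 on 2 to 16. How far depth or the number of libraries limited these calls was not tested.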

Other observations

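Per1 is known to answer cAMP and glucocorticoids, and other genes that answer them were looked at. Of 11 genes induced by cAMP and its factor CREB, 10 were tested, of which 4 rose and 2 fell, beside 8.94% of all tested genes that passed. Pde4d and Pde4b, phosphodiesterases that break down cAMP, rose with log2 fold changes of 0.58 (adjusted p = 0.00182, edgeR) and 0.29 (adjusted p = 0.00312, edgeR). Fosl2, an AP-1 subunit, rose with 0.22 (adjusted p = 0.00463, edgeR), and Nr4a2, an orphan nuclear receptor, with 0.32 (adjusted p = 0.0373, edgeR). For the related receptor gene Nr4a1 the level was 40.03 ± 6.42 CPM in control and 24.7 ± 3.57 with So(d18:1) (SD, n = 4 each), a fall (log2 fold change -0.70, adjusted p = 0.0102, edgeR), and Sik1, a kinase that restrains CREB, fell with -0.30 (adjusted p = 0.0215, edgeR). With 1 library left out, Nr4a2 kept its call only without control replicate 2 or 3 (adjusted p up to 0.121 in the other fits). Sik1 lost it without control replicate 3 or So(d18:1) replicate 2 or 4 (up to 0.0919), and Nr4a1 without So(d18:1) replicate 4 (0.0544). Nr4a1 and Sik1 were highest in control replicates 3 and 4, as were the neutrophil markers (summed level 1548 and 1366 CPM against 1178 and 1155 in control replicates 1 and 2), whose part in these falls was not tested. Of 10 genes induced by the glucocorticoid receptor, 9 were tested and 2 passed, beside the same 8.94% of all tested genes, namely Cebpd, which rose (log2 fold change 0.24, adjusted p = 0.0250, edgeR) and Sgk1, which fell (-0.18, adjusted p = 0.0226, edgeR). Cebpd did not pass without control replicate 1 or 2 or So(d18:1) replicate 1 or 2 (adjusted p up to 0.0809), nor Sgk1 without control replicate 3 or So(d18:1) replicate 2 (up to 0.0927).

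The genes whose log2 CPM over the 8 libraries was most like that of Arntl, among 9159 genes with a mean log2 CPM of at least 3, were Zfp90 (Pearson r = 0.990), Tubgcp5 (r = 0.988) and Adap2 (r = 0.985), each lower with So(d18:1). The libraries fall into 2 groups for each of them, so r mainly restates that difference. Zfp90 went from 43.5 ± 1.04 CPM in control to 30.9 ± 2.04 with So(d18:1) (SD, n = 4 each), and its log2 fold change was -0.49 (adjusted p = 1.07e-05, edgeR). The log2 fold changes of Tubgcp5 and Adap2 were -0.23 (adjusted p = 0.0112, edgeR) and -0.37 (adjusted p = 5.47e-06, edgeR).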
